A study of Mus musculus with 6 samples.

Results

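The transcripts described here are 38 genes that mark T cells and natural killer (NK) cells. They were chosen by name and by what their products do, with earlier results of these data known. Shares over all genes given below are therefore a background and no test of the set. All 38 were found among the 53715 genes of the count table, of which 31638 had at least 1 read count. The genes fall into 9 roles: chains of the T cell receptor (TCR) complex, coreceptors, other surface and costimulatory molecules, signalling proteins, transcription factors, receptors for tissue retention and cytokines, effectors of killing, NK receptors and inhibitory receptors.

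The libraries are bulk poly(A) RNA of Gad2-Cre mice, taken from piriform cortex, the part of cortex that reads odours. All mice carried Cre recombinase driven by Gad2, a gene of GABA-producing inhibitory neurons, and all received an adeno-associated virus on 1 side of the piriform cortex by stereotactic injection. The Caspase3 group (3 libraries) received AAV-DIO-Caspase3, which makes an engineered caspase 3, an executioner protease of apoptosis, in cells with Cre. The GFP group (3 libraries) received AAV-DIO-GFP, in which the same cells make a fluorescent protein, so both groups share the Cre allele, a viral vector and the injection. For age, sex, the interval after injection and the side sampled, the sources used here give nothing. Whether each library is a separate animal is not stated in the labels either. The p-values therefore speak of library-to-library spread alone, part of which may be technical.

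T cells recognise peptides on major histocompatibility complex (MHC) molecules through a receptor of variable chains, which is carried to the surface and connected to the cell interior by the CD3 chains. CD8 marks T cells that read MHC class I and can kill, and CD4 marks T cells that read MHC class II and direct other cells. NK cells kill without a rearranged receptor, under the control of activating and inhibitory lectin-like receptors. Healthy brain tissue holds few of these cells, and CD8 T cells enter it in viral infection, autoimmunity and after neuronal injury.

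Total counts ranged from 20424581 to 26268377 per library, and CPM below is the usual depth-scaled count, the reads of a gene relative to the library total after scaling for composition. With 3 counts in a library as the detection floor, 0.118 to 0.142 CPM could be told from 0. The excitatory cortical markers Slc17a7, Tbr1, Neurod6, Rbfox3 and Neurod2 were present in every library, at 1320 to 1542 CPM in sum in the Caspase3 group and 1146 to 1694 CPM in the GFP group. GFP replicate 3 stood apart with striatal transcripts, its 7 listed striatal genes summing to 1144 CPM against 188 to 296 CPM in the other 5 libraries. For Cd4, the number of genes that passed the test, the number that separated the groups and the sum of all members, values are given with and without it. The same holds for the sum of the TCR complex and coreceptors together, but not for that of the coreceptors alone. For the other tested genes at most an adjusted p is given without it, in places within a range.

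Most of the 38 genes were scarce, and nearly all had more reads in the Caspase3 group. In the Caspase3 libraries 34 to 37 of the 38 genes had a read, against 22 to 25 in the GFP libraries. Summed over each group and scaled to depth, 36 genes were higher in Caspase3, Cd4 was lower and Ifng had no read anywhere. The groups did not overlap in CPM for 22 of the 38 genes, Caspase3 being higher in each, beside 6.45% of all genes with a count that separate in this direction. In unscaled counts it was 21, since Klrd1 then ties at 1 read. For Cd3g, Trbc2, Gzmk and Klrk1 the nearest libraries of the groups differed by 1 read. Among genes with at least 10 counts over the 6 libraries that share was 8.39%. No gene of the 38 separated in the other direction, as 4.62% of all genes with a count did. In a bulk sample, more cells of a type and more RNA per cell cannot be told apart.

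**Figure D1:**
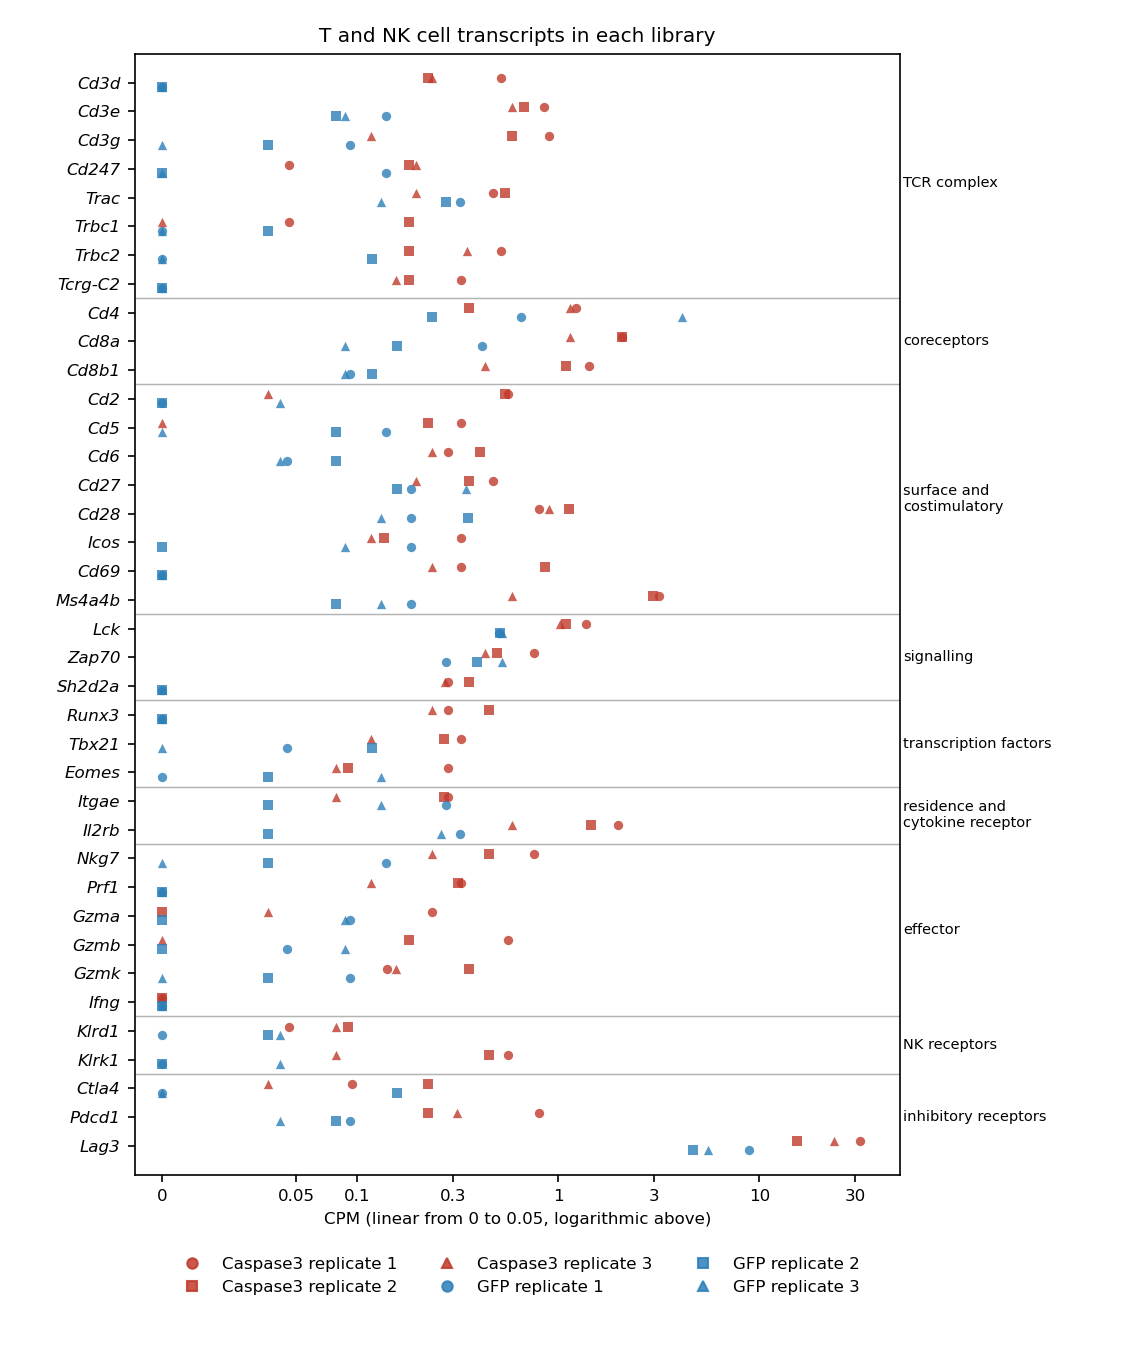
CPM of each of the 38 transcripts in each of the 6 libraries, grouped by role. The horizontal axis is linear from 0 to 0.05 CPM and logarithmic above. Red symbols are Caspase3 libraries and blue symbols GFP libraries. Lag3 lies far to the right of the others, and Cd4 has its highest value, 4.12 CPM, in GFP replicate 3.

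Over all genes, 10 of the 38 had enough reads for edgeR's quasi-likelihood test, and 28 were described by their counts alone. Of these 10, 5 rose at an adjusted p under 0.05 (Cd3e, Cd8a, Cd8b1, Ms4a4b and Lag3) and none fell, beside 1.53% of the 16721 genes tested that rose and 0.114% that fell. The filter asked for enough reads in 3 libraries, so a gene could enter through the Caspase3 group alone. Cd3e, Cd8a, Cd8b1 and Ms4a4b had at most 9 counts in any GFP library. Their entry and their calls thus rest on the same high Caspase3 values, and the share beside them is a background and no test. No member had an unadjusted p under 0.05 with a lower value, and DESeq2 and limma-voom also called none lower. DESeq2, run on all genes with a count, called 10 of the 38 higher (beside 1.25% of 31638 genes), adding Cd3d, Cd69, Runx3, Sh2d2a and Il2rb to those 5. It gave an adjusted p to 21202 of these genes, of which it called 397 higher, and 5 of the 37 members with a count received none. The share among genes that could be called was thus above 1.25%. With limma-voom, Cd3e, Cd8a and Lag3 were called (beside 1.29% of 16721 genes). With no filter on low counts, edgeR called 18 of the 38 higher, beside 2.1% of 31638 genes. The calls depended on single libraries. Without GFP replicate 3 none of the 38 was called higher, beside 0.783% of all genes tested, and without GFP replicate 2 none of the 16721 genes passed (1262 had an unadjusted p under 0.05, 8 of the 38 among them). The count was 1 without Caspase3 replicate 2 (beside 1.18%), 2 without Caspase3 replicate 1 (1.49%), 3 without GFP replicate 1 (1.2%) and 6 without Caspase3 replicate 3 (1.26%).

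The summed level of the 38 transcripts was 41.6 ± 12.1 CPM (SD, n = 3) in the Caspase3 group and 11.5 ± 3.04 CPM (SD, n = 3) in the GFP group, 3.63-fold higher. Lag3 supplied 43.6% to 68.4% of the member counts in each library, and the fold was 3.57 without it. Without Lag3, the sums in Caspase3 replicates 1, 2 and 3 were 23.8, 19.8 and 10.8 CPM, and those in GFP replicates 1, 2 and 3 were 4.70, 3.32 and 7.19 CPM. The groups did not overlap in either sum. Leaving out Lag3 and Cd4 gave 17.2 ± 6.75 against 3.40 ± 0.561 CPM, 5.06-fold higher, which was chosen after the values were seen. Caspase3 replicate 3 was the lowest of its group for 27 of the 37 genes with a read, and Caspase3 replicate 1 the highest for 25. The same shares over all genes are not given here.

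**Figure D2:**
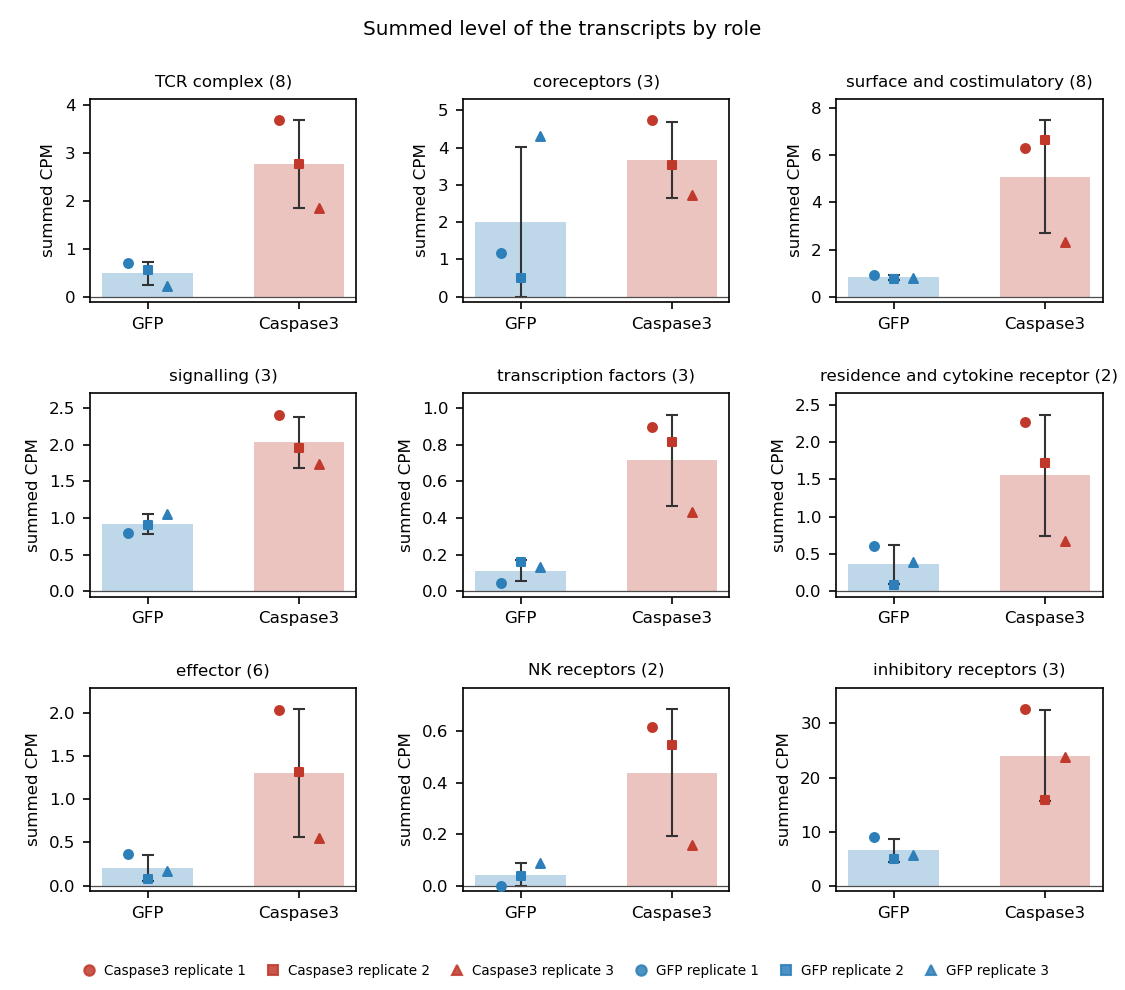
Summed CPM of the transcripts of each role, with the number of genes in parentheses. Points are libraries, bars are group means and error bars the SD (n = 3), drawn no lower than 0. The vertical axis starts just below 0 so that points at 0 are visible. The groups overlap in the panel of coreceptors, where GFP replicate 3 reaches 4.30 CPM, and in no other panel.

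The chains of the TCR complex were higher in every Caspase3 library than in any GFP library when summed. The 8 genes added to 78, 61 and 47 counts in Caspase3 replicates 1, 2 and 3, and to 15, 14 and 5 counts in GFP replicates 1, 2 and 3, which is 2.77 ± 0.920 against 0.490 ± 0.246 CPM (SD, n = 3). In what follows, counts are listed in that order of libraries. Of the 8 genes, 5 separated the groups, and Cd3e was the 1 of them with enough reads for the test.

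Cd3e (ENSMUSG00000032093, chromosome 9, 44998740 to 45009627, GRCm38) encodes the CD3 epsilon chain, which every surface TCR requires. It had 18, 15 and 15 counts in the Caspase3 libraries and 3, 2 and 2 in the GFP libraries. All 3 Caspase3 values lay at 0.591 CPM or more, and all 3 GFP values at 0.140 CPM or less. Cd3e rose with a log2 fold change of 2.74 ± 0.45 (SE, edgeR adjusted p = 0.0195). It missed the threshold without Caspase3 replicate 1 or 2 or GFP replicate 2 or 3 (edgeR adjusted p = 0.0538 to 0.112).

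The neighbouring Cd3d and Cd3g lie head to head beside Cd3e on chromosome 9 and encode the CD3 delta and gamma chains, which pair with CD3 epsilon. Cd3d had 11, 5 and 6 counts against no count in any GFP library. That is at least 5.56-fold higher by the lower limit of the exact 95% interval, and 7.44-fold with the GFP group set to a floor of 3 counts over its libraries. These limits, like all intervals on counts here, cover counting error only, and the same pair of values is given for each gene with no GFP read. Cd3g had 19, 13 and 3 counts against 2, 1 and 0. Its ratio of group sums was 11.8 (exact 95% interval 3.73 to 60.2), and its groups touch closely, since Caspase3 replicate 3 stood at 0.118 CPM and GFP replicate 1 at 0.0931 CPM.

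The fourth chain, CD3 zeta, is encoded by Cd247 and carries most of the receptor's signalling motifs. Cd247 had 1, 4 and 5 counts against 3, 0 and 0, and the groups overlapped. An exon of Cd247 overlaps an exon of Pou2f1 on the other strand by up to 2136 bases, and the sources used here do not give the strand setting of the counting, so reads of these genes may be mixed.

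Genes of the receptor's constant regions did not move as a block. Trbc2, a constant region of the beta chain, had 11, 4 and 9 counts against 0, 3 and 0 (ratio 8.12, exact 95% interval 2.47 to 42.1). Its near copy Trbc1 had 1, 4 and 0 counts against 0, 1 and 0. Of the 50-base stretches of Trbc1 transcripts, 40.5% also occur in Trbc2, so reads may have been dropped or split between them. Trac, the constant region of the alpha chain, had 10, 12 and 5 counts against 7, 7 and 3, and its groups overlapped (ratio 1.61, interval 0.847 to 3.15). Trac thus had most reads of the 8 genes in the GFP group, 17 of 34, in libraries where Cd3d had none. Tcrg-C2, a constant region of the gamma chain, had 7, 4 and 4 counts against none, at least 3.64-fold higher by the exact limit and 5.08-fold against the floor, and 25.4% of its 50-base stretches occur in Tcrg-C1 or Tcrg-C3.

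Variable, diversity and joining segments, which were no part of the 38 genes, gave a mixed picture. Rows for these TCR segments, 256 in all, held 50, 29 and 15 counts in the Caspase3 libraries and 11, 30 and 18 in the GFP libraries, and the groups overlapped. Alpha segments held 56 counts in the Caspase3 group and 52 in the GFP group. Of the latter, Trav9-4 alone had 16 in GFP replicate 2. Beta segments held 11, 6 and 1 counts against 1, 2 and 0, and gamma and delta segments 10, 7 and 3 against 1, 2 and 1. The log2 ratio of all TCR segments was 0.78 and dropped to 0.20 without Caspase3 replicate 1. Distinct segments with a read numbered 21, 19 and 10 in the Caspase3 libraries and 7, 8 and 9 in the GFP libraries.

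The coreceptors moved unequally, with both CD8 chains higher in the Caspase3 group and Cd4 not. Cd8a (ENSMUSG00000053977, chromosome 6, 71373427 to 71379173) encodes the alpha chain of CD8, which binds MHC class I. It had 44, 46 and 29 counts in the Caspase3 libraries against 9, 4 and 2 in the GFP libraries. The lowest Caspase3 value was 1.14 CPM and the highest GFP value 0.419 CPM. Cd8a rose with a log2 fold change of 2.99 ± 0.50 (SE, edgeR adjusted p = 0.0204), and missed the threshold without Caspase3 replicate 2, GFP replicate 2 or GFP replicate 3 (edgeR adjusted p = 0.0609, 0.128 and 0.0661).

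Cd8b1 (chromosome 6, 71322788 to 71337494), the beta chain that pairs with CD8 alpha on conventional cytotoxic T cells, had 30, 24 and 11 counts against 2, 3 and 2. Cd8b1 rose with a log2 fold change of 3.20 ± 0.59 (SE, edgeR adjusted p = 0.0315). Of the fits that leave out 1 library it passed in the one without Caspase3 replicate 3 (edgeR adjusted p = 0.00804), and in the others its adjusted p was 0.0693 to 0.153. Per kilobase of gene model, Cd8b1 stood at 0.661 and Cd8a at 0.487 CPM in the Caspase3 group, and at 0.067 and 0.061 CPM in the GFP group.

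Cd4, the coreceptor of helper T cells that some myeloid cells also make, had 26, 8 and 29 counts in the Caspase3 libraries and 14, 6 and 94 in the GFP libraries. The highest value of all, 4.12 CPM, was that of GFP replicate 3, the library with the striatal transcripts. Whether these belong together was not tested. Its log2 fold change was -0.86 ± 0.87 (SE, edgeR adjusted p = 0.782), and 1.06 (edgeR adjusted p = 0.609) without GFP replicate 3. Within a library, the level of Cd8a per kilobase was 1.88, 6.37 and 1.11 times that of Cd4 in the Caspase3 libraries, and 0.713, 0.739 and 0.0236 times in the GFP libraries. This within-library ratio did not overlap between the groups, also when GFP replicate 3 is set aside. Cd8a alone already separates the groups, and no share over all gene pairs was computed. The nearest values, 1.11 and 0.739, rest on 29 reads of each gene and on 4 reads of Cd8a and 6 of Cd4. The ratio of Cd3e to Cd4 did not overlap either, while that of Cd8a to Cd8b1 did (0.598 to 1.07 against 0.408 to 1.83). Of 2 further genes tied to the CD4 lineage, Foxp3, the regulator of regulatory T cells, had 2, 3 and 1 counts against 6, 2 and 10, and Cd40lg, a ligand on activated helper cells, had 2, 0 and 0 against 2, 0 and 0.

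The sequences just upstream of 3 of the genes are printed because their transcripts separate the groups while differing in role: Cd3e for the receptor, Cd8a for the coreceptor and Prf1 for killing. Each is the 250 bases before the annotated start in RefSeq (GRCm38.p6), read 5′ to 3′ on the gene's strand, at chr9:45009612-45009861 (minus strand), chr6:71373177-71373426 (plus strand) and chr10:61297586-61297835 (plus strand). Capitals mark matches on either strand to TGTGGT, the core bound by Runx factors, or to AGGAAG, an Ets-type core.
Cd3e: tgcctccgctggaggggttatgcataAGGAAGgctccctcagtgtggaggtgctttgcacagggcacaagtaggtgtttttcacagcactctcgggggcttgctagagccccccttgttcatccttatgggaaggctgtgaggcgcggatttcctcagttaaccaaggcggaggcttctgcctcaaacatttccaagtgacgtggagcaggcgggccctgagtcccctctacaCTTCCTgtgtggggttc
Cd8a: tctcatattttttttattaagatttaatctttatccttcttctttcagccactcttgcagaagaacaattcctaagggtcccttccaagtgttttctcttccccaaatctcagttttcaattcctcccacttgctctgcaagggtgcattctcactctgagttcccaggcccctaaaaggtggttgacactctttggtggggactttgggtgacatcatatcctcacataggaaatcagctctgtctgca
Prf1: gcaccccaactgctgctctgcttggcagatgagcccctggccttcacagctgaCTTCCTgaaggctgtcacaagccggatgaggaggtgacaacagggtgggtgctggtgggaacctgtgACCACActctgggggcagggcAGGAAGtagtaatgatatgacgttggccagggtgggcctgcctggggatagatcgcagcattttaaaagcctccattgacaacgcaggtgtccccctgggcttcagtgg

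Cd3e held 2 matches to AGGAAG and none to TGTGGT, Cd8a held neither, and Prf1 held 2 matches to AGGAAG and 1 to TGTGGT. Upstream windows were found for 22 of the 38 genes, 26 windows in all. A match to TGTGGT was present in 8 of these 26 windows and in 4614 of all 32851 windows of that length. A match to AGGAAG was present in 13 of the 26 and in 9686 of all windows, and a pair of GAAA blocks 2 bases apart, the core of interferon-stimulated response elements, in 2 of the 26 and in 978 of all windows. These are matches of letters, and binding was not measured.

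Among the 8 surface and costimulatory genes, 4 separated the groups and Ms4a4b had the most reads. The sums were 133, 146 and 59 counts in the Caspase3 libraries and 20, 19 and 18 in the GFP libraries, 6.17-fold higher in CPM. Ms4a4b (chromosome 19, 11443553 to 11463549), a membrane protein of T cells, had 67, 65 and 15 counts against 4, 2 and 3. The value of Caspase3 replicate 3, 0.591 CPM, was far below the 3.17 and 2.95 CPM of replicates 1 and 2. Ms4a4b rose with a log2 fold change of 4.04 ± 0.72 (SE, edgeR adjusted p = 0.0277), but with limma-voom it did not pass (adjusted p = 0.176). Of the fits that leave out 1 library it passed without Caspase3 replicate 3 (edgeR adjusted p = 0.00125), and missed the threshold in the other 5 (0.0503 to 0.171).

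Cd28, the main costimulatory receptor of T cells, had 17, 25 and 23 counts against 4, 9 and 3. The groups did not overlap, and the log2 fold change was 2.03 ± 0.42 (SE, edgeR adjusted p = 0.0548). It passed with library totals in place of scaled totals (edgeR adjusted p = 0.0408), with the replicate block (0.0479) and in the unfiltered fit (0.00411). Cd69, an early activation marker that also holds T cells in tissue, had 7, 19 and 6 counts against none, at least 8.31-fold higher by the exact limit and 10.8-fold against the floor (DESeq2 adjusted p = 0.00558). Cd6, a receptor that tunes TCR signals, had 6, 9 and 6 counts against 1, 2 and 1.

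Cd2, an adhesion receptor of T and NK cells, had 12, 12 and 1 counts against 0, 0 and 1. Caspase3 replicate 3 and GFP replicate 3 thus had 1 read each, and the groups overlapped for that reason. The remaining genes of this role overlapped more widely. Cd5, an inhibitory coreceptor, had 7, 5 and 0 counts against 3, 2 and 0, and Cd27, a costimulatory receptor of the tumour necrosis factor receptor family, had 10, 8 and 5 against 4, 4 and 8. Icos, a costimulator of activated T cells, had 7, 3 and 3 counts against 4, 0 and 2.

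Of the 3 proximal signalling genes, Lck and Zap70 had reads in every GFP library and Sh2d2a in none. Lck, the kinase that starts TCR signalling, had 29, 24 and 26 counts against 11, 13 and 12. The groups did not overlap and the GFP values were close together, at 0.512 to 0.526 CPM. Its log2 fold change was 1.15 ± 0.29 (SE, edgeR adjusted p = 0.129), and it passed under none of the alternatives run (adjusted p from 0.112 to 0.380). Zap70, the kinase that Lck activates on the CD3 chains, had 16, 11 and 11 counts against 6, 10 and 12, with a log2 fold change of 0.47 ± 0.41 (SE, edgeR adjusted p = 0.748). Sh2d2a, an adaptor that binds Lck in activated T cells, had 6, 8 and 7 counts against none, at least 5.29-fold higher by the exact limit and 7.11-fold against the floor (DESeq2 adjusted p = 0.0405).

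Of the transcription factors, Runx3 separated the groups. Runx3, which drives the CD8 programme and silences Cd4, had 6, 10 and 6 counts against none, at least 5.56-fold higher by the exact limit and 7.44-fold against the floor (DESeq2 adjusted p = 0.0325). Tbx21, which encodes T-bet and drives cytotoxic and type 1 programmes, had 7, 6 and 3 counts against 1, 3 and 0. Caspase3 replicate 3 and GFP replicate 2 were nearly level, at 0.118 and 0.119 CPM. Eomes, a related factor of memory T cells and NK cells, had 6, 2 and 2 counts against 0, 1 and 3.

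Il2rb, a receptor chain for interleukin 2 and interleukin 15 on cytotoxic and NK cells, had 42, 32 and 15 counts against 7, 1 and 6. Its groups did not overlap. The log2 fold change was 2.68 ± 0.64 (SE, edgeR adjusted p = 0.1001), while DESeq2 placed it past the threshold (adjusted p = 0.00691). Without Caspase3 replicate 3 it passed with edgeR as well (adjusted p = 0.0487). Itgae, which encodes CD103 of resident T cells and some dendritic cells, had 6, 6 and 2 counts against 6, 1 and 3, with a ratio of group sums of 1.42 (exact 95% interval 0.587 to 3.58).

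Effector genes of killing were low in all libraries and higher in the Caspase3 group when summed. The 6 genes held 43, 29 and 14 counts against 8, 2 and 4, which is 1.30 ± 0.742 against 0.209 ± 0.149 CPM (SD, n = 3). Nkg7, a granule protein of killer cells, had 16, 10 and 6 counts against 3, 1 and 0 (ratio 8.12, exact 95% interval 2.88 to 31.6). Prf1, which encodes the pore-forming perforin, had 7, 7 and 3 counts against none, at least 4.19-fold higher by the exact limit and 5.75-fold against the floor. These are 2 of the 3 effector genes whose groups did not overlap.

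The third was Gzmk, a granzyme of memory CD8 T cells, with 3, 8 and 4 counts against 2, 1 and 0. Gzmb, the main granzyme of fully armed killer cells, had 12, 4 and 0 counts against 1, 0 and 2, and so was absent from Caspase3 replicate 3. Gzma, another granzyme, had 5, 0 and 1 counts against 2, 0 and 2. Ifng, the gene of interferon gamma, had no read in any library, which allows up to 0.118 to 0.142 CPM per library and was not enough depth to show a difference.

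Of the 2 NK receptor genes, Klrk1 separated the groups and Klrd1 did so by depth scaling alone. Klrk1, which encodes the activating receptor NKG2D of NK and CD8 T cells, had 12, 10 and 2 counts against 0, 0 and 1 (ratio 24.4, exact 95% interval 3.97 to 1002). Its separation rests on 2 reads in Caspase3 replicate 3 against 1 in GFP replicate 3, both below the detection floor of 3 counts. Klrd1, which encodes CD94, a partner of NKG2 receptors on both cell types, had 1, 2 and 2 counts against 0, 1 and 1, and its interval spans equality (0.415 to 26.6). A Caspase3 library and 2 GFP libraries had 1 read of Klrd1 each, and all libraries of both groups were below the detection floor for it. Of NK genes outside the 38, Ncr1, the receptor NKp46, had 3, 2 and 1 counts against none, and Klrb1c, which encodes NK1.1, 0, 2 and 1 against none. Klra4, Klra7 and Gzmc had no read anywhere.

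The inhibitory receptors were led by Lag3, which binds MHC class II and which neurons and microglia also make. Lag3 (chromosome 6, 124904361 to 124911705) had 671, 337 and 594 counts in the Caspase3 libraries against 192, 118 and 127 in the GFP libraries. The lowest Caspase3 value was 15.3 CPM and the highest GFP value 8.94 CPM. Lag3 rose with a log2 fold change of 1.88 ± 0.30 (SE, edgeR adjusted p = 0.0174), and missed the threshold without GFP replicate 2 or GFP replicate 3 (edgeR adjusted p = 0.107 and 0.0664). Per kilobase it stood at 11.1 CPM in the Caspase3 group and 3.03 CPM in the GFP group, where no other member passed 0.661 and 0.414 CPM. Its order among the Caspase3 libraries also differed: replicate 2 was lowest for Lag3 and replicate 3 lowest for most of the 37 genes with a read.

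Pdcd1, which encodes PD-1, a brake on stimulated T cells, had 17, 5 and 8 counts against 2, 2 and 1 (ratio 6.09, exact 95% interval 2.34 to 20.1), and the groups did not overlap. Ctla4, which competes with CD28 for its ligands, had 2, 5 and 1 counts against 0, 4 and 0, and the groups overlapped.

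**Figure D3:**
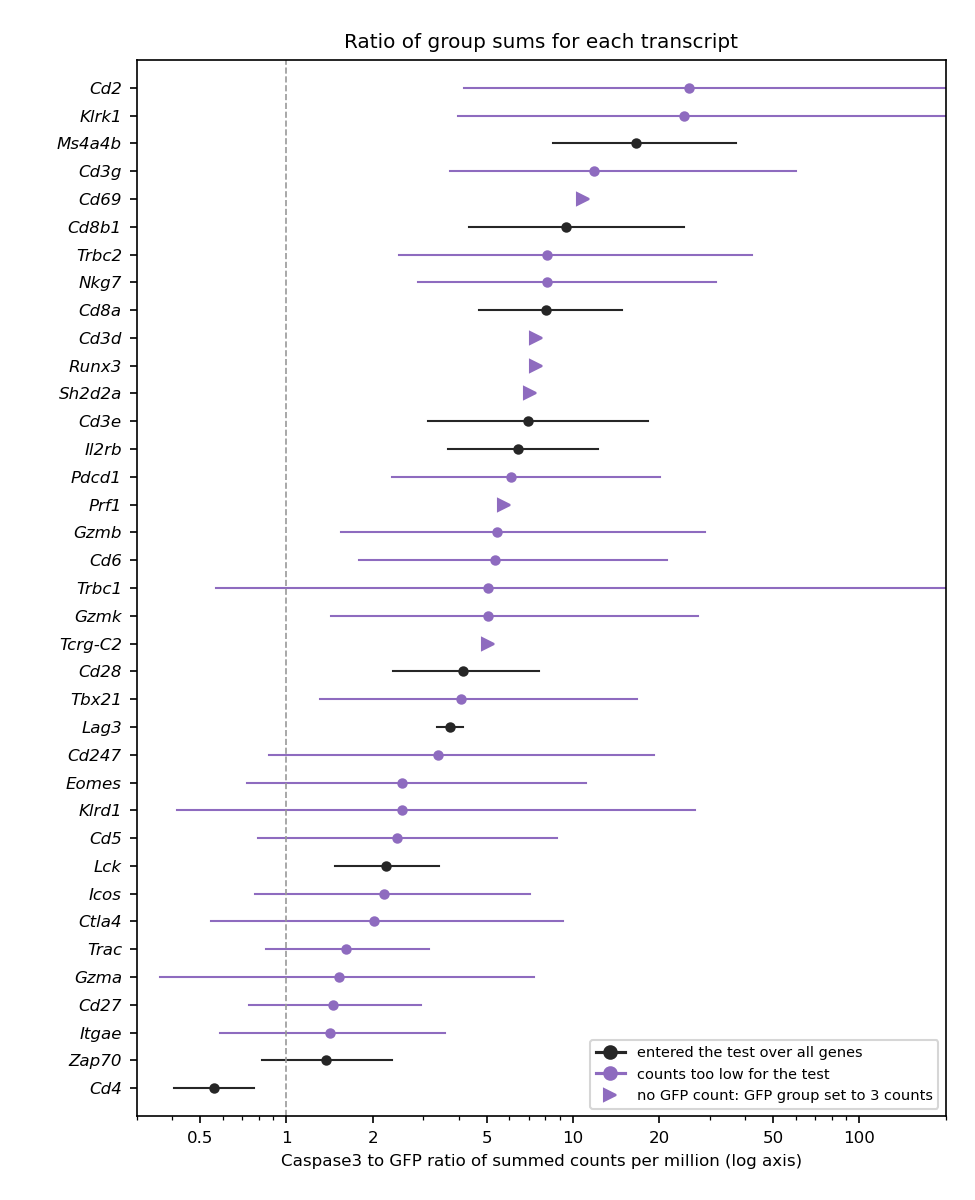
Ratio of Caspase3 to GFP group sums, scaled to depth, for the 37 transcripts with a read, on a logarithmic axis. Circles are ratios with exact 95% intervals (counting error only, not the spread between libraries). Right-pointing triangles are the 6 genes with no GFP read, drawn at the ratio against a GFP group set to 3 counts, and intervals past 200 are drawn to the edge. Cd4 is the 1 transcript with a ratio below 1.

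The intervals in the plot of ratios lay above 1 for 24 of the 38 genes, beside 14.5% of all genes with a count. In 6 of the 38 (Cd3d, Tcrg-C2, Cd69, Sh2d2a, Runx3 and Prf1) each Caspase3 library had a read and no GFP library did, beside 0.367% of all genes with a count. None of the 38 had the reverse pattern, beside 0.326%. With GFP replicate 3 and Caspase3 replicate 1 both left out, chosen after the data were seen, 27 of the 38 genes separated, beside 16.0% of all genes with a count, and edgeR called Cd8a and Lag3.

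Other lymphocyte genes were compared with the 38. Of 30 further T cell genes, 12 were tested and 1 rose: Ccl5, a chemokine that cytotoxic T cells and other cells make (log2 fold change 5.13 ± 0.64, edgeR adjusted p = 0.00569). Of all genes tested with edgeR, 1.53% rose. DESeq2 called 4 of the 30 higher and limma-voom 1. Of the 30, 7 separated the groups with Caspase3 higher, beside 6.45% of all genes with a count: Ccl5, Cxcr3, Cxcr6, Tnfrsf9, Tigit, Havcr2 and Slamf7. The sums of the 30 were 50.8 to 57.3 against 39.7 to 48.8 CPM, 1.29-fold higher. The median log2 fold change of the 12 tested was 0.50, and the lowest was that of Txk (-0.70 ± 0.59, edgeR adjusted p = 0.740). Cxcr3 and Cxcr6, chemokine receptors of effector T cells, had 7, 11 and 8 counts against 1, 0 and 0 and 23, 34 and 8 against 6, 1 and 1. Ccr7, a marker of naive and central memory T cells, had 4 reads over the 6 libraries.

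Of 14 NK and innate lymphoid genes in the table, 2 were tested and neither edgeR, DESeq2 nor limma-voom called any. At an unadjusted p under 0.05, edgeR had 0 of the 2, and DESeq2, run on all with a count, had Klrc1. The groups separated for 4 of the 14 (Ncr1, Klrc1, Cd226 and Il18rap), Caspase3 being higher, beside 6.45% of all genes with a count. The most abundant, Il12rb2, had a log2 fold change of -0.20 ± 0.29. Of 7 genes listed for gamma-delta T cells, 1 was tested, Sox13, which glia also express, and no tool called any. At an unadjusted p under 0.05, edgeR had 0 and DESeq2 had Tcrg-C4. The groups separated for 1 of the 7, beside that same 6.45%. It was the gamma constant region Tcrg-C1, with 2, 3 and 3 counts against none. The sums of the 7 overlapped, at 5.90 to 11.6 against 7.83 to 9.31 CPM. Tcrg-C4, another, had 12, 0 and 0 counts against none, and Trdc, the constant region of the delta chain, had 5, 8 and 1 against 2, 5 and 8. Of 12 B and plasma cell genes, 3 were tested and Cd22, which microglia also make, rose (log2 fold change 2.89 ± 0.49, edgeR adjusted p = 0.0219). Groups separated for 4 of the 12 (Cd22, Pax5, Igkc and Jchain), beside that same 6.45%. The sums of the 12 overlapped, at 17.4 to 35.4 against 11.5 to 26.5 CPM. Pax5, a factor of the B lineage, had 26, 12 and 13 counts against 1, 7 and 1 (log2 fold change 2.51 ± 0.68, edgeR adjusted p = 0.159), and Igkc, an antibody light chain, had 2, 9 and 2 against none. Segments of immunoglobulin genes had 20, 11 and 27 counts against 8, 10 and 3, without overlap, while the B cell gene Ms4a1 had 2 reads in all.

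**Figure D4:**
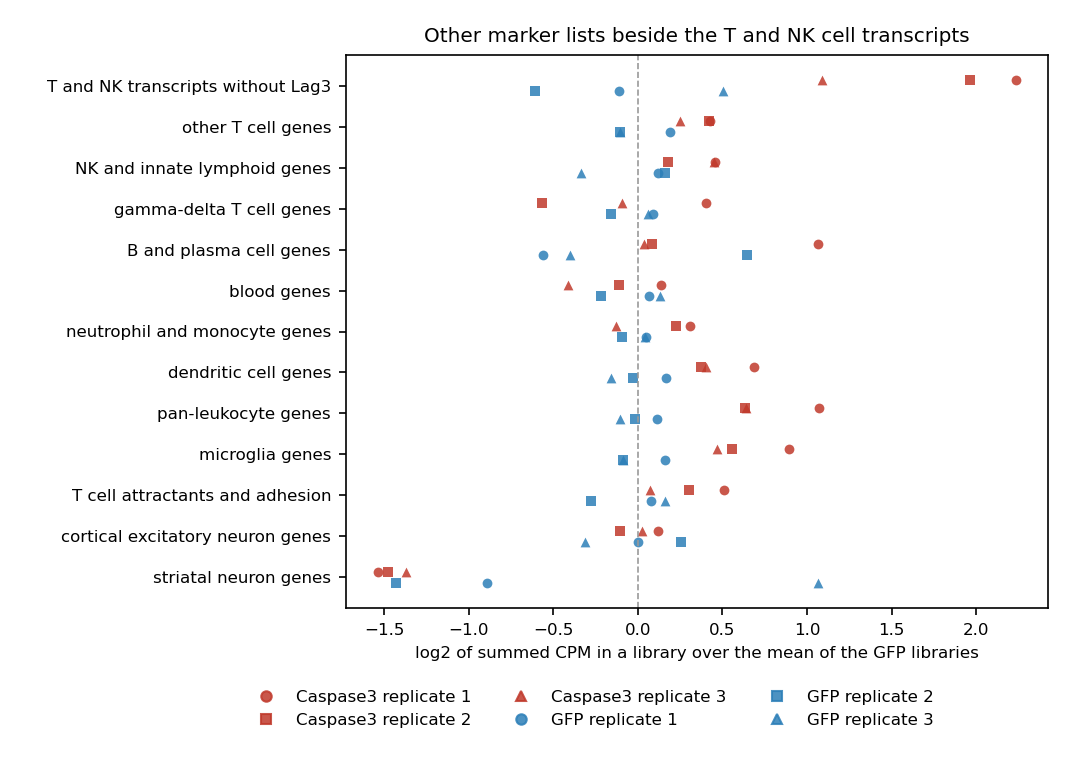
Summed CPM of each gene list in each library, as log2 over the mean of the GFP libraries. Red symbols are Caspase3 libraries and blue symbols GFP libraries. The T and NK transcripts without Lag3 lie highest in Caspase3, at 10.8 to 23.8 CPM. Blood genes overlap between the groups, and striatal genes are high in GFP replicate 3.

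Among markers of other cells, the sums of some lists separated the groups and those of others overlapped. Of 7 blood genes, 5 were tested and none passed with edgeR, DESeq2 or limma-voom, and edgeR and DESeq2 had none at an unadjusted p under 0.05. Their sums were 18.4 to 26.9 CPM in the Caspase3 group and 21.0 to 26.8 CPM in the GFP group, led by Hbb-bs, a haemoglobin chain. Of 10 neutrophil and monocyte genes, 4 were tested and edgeR called none (1 at an unadjusted p under 0.05; DESeq2 called 2 and limma-voom 1). Their sums were 32.7 to 44.3 against 33.5 to 36.9 CPM, mostly Vcan, which glial precursors also make. Ly6g was at 0 in all libraries, while the monocyte gene Ly6c2 had 18, 20 and 4 counts against 1, 0 and 1.

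Among 12 genes shared by leukocytes, 11 were tested and 6 rose, among them Ptprc, which encodes CD45 (log2 fold change 1.52 ± 0.21, edgeR adjusted p = 0.0079), and Lcp1 and Itgb2. Over all genes tested, 1.53% rose, which is a background to this count and to those of the next lists. The sums of the 12 were 195 to 264 CPM against 117 to 136 CPM. Of 8 microglia genes, all of them tested, 4 rose, among them Aif1, Csf1r and Cx3cr1, and the sums were 465 to 623 against 317 to 375 CPM. Of 8 dendritic cell genes, 6 were tested and Itgax, which activated microglia also express, rose. The dendritic sums were 42.6 to 52.9 against 29.4 to 36.9 CPM, and the dendritic cell gene Xcr1 had 0, 0 and 3 counts against 0, 1 and 0. The part of these cells in the values of the 38 genes was not tested.

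Of 12 genes of T cell attraction and adhesion, 7 were tested and 5 rose, beside 1.53% of all genes tested. The 3 with the smallest adjusted p were Cxcl10, Ccl5 and Icam1. The sums of the 12 overlapped, at 170 to 231 against 134 to 181 CPM. Cxcl10, a ligand of the receptor that Cxcr3 encodes, had 527, 655 and 196 counts against 7, 2 and 3, and Cxcl9, another ligand of it, had 56, 60 and 25 against 5, 0 and 5. Caspase3 replicate 3 was the lowest of its group for both, as it was for most of the T and NK transcripts. That order is not particular to them. Replicate 3 was also lowest in the sums of blood genes (26.9, 22.7 and 18.4 CPM), neutrophil and monocyte, B cell and microglia genes. In the sums of shared leukocyte, dendritic cell, NK, gamma-delta and cortical genes replicate 2 was lowest, and in that of striatal genes replicate 1. With 3 libraries in a group, no correlation can be given.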

How the data were processed

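The authors deposited a table of whole-number read counts per gene by Ensembl gene, with name, position and length beside them, per the file headers. The submitters' processing notes list GRCm38 and mm10 as builds, and featureCounts, HISAT2 and DESeq2 as tools, without saying what each was used for or with which settings. The library kit labels the second strand, per the labels' protocols. Groups and replicate numbers came from the sample titles. Raw counts were used for every member with no filter. For the test over all genes, edgeR 4.0.16 in R 4.3.3 was used (filterByExpr, TMM factors, quasi-likelihood test, all 6 libraries, Benjamini-Hochberg adjustment), and DESeq2 1.42.0 and limma-voom (limma 3.58.1) were alternatives. Each SE was derived from the log2 fold change and its F statistic. CPM used total counts times TMM factors. Ratios of group sums have exact 95% intervals, and a group at 0 was set to 3 counts. Exon overlaps and shared 50-base stretches were computed with GENCODE M21, in which 36 of the 38 genes have the start and end of the table. Replicates differed by more than sampling noise (mean chi-square per gene 12.6 to 32.8). The text names every member and, of each other list, up to 3 genes that passed with the smallest adjusted p or the gene with the highest mean CPM. Any other gene was named after its values were seen. Cd244a of the NK list was not matched by name. The members and lists were chosen with earlier results of these data known. The deposited FPKM table was not used here. Values of some listed genes are not reported here. Figures were drawn with Matplotlib 3.10.9.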

Additional observations from a re-analysis of the deposited data

How the results depend on the processing

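The number of the 38 genes called higher was 5, beside 1.53% of all genes tested. It was 10 with DESeq2 (beside 1.25%), 3 with limma-voom (1.29%) and 18 with no filter on low counts (2.1%). The DESeq2 share is over all genes with a count, also those that received no adjusted p. As each library was left out it was 0 to 6 (0% to 1.49%). Without both Caspase3 replicate 1 and GFP replicate 3, an alternative added after seeing the data, it was 2 (1.56%). It was 5 or 6 with the other scalings, the filter at 10 counts and the threshold of 0.1 (1.23% to 2.02%). The number called lower was 0 throughout. The cause of these changes was not tested. The log2 fold change of Cd4 was -1.39 to 1.06 as each library was left out, and 0.82 without both libraries. The log2 ratio of the summed members was 1.86, 1.59 to 2.004 as each library was left out, and 2.34 without Lag3 and Cd4 (added after seeing the data). That of the TCR complex and coreceptors was 1.37, 1.01 to 2.14 as each library was left out, and 2.77 without Cd4, its member with most counts. Without GFP replicate 3, the log2 ratio was 1.94 for the summed members and 2.14 for the TCR complex and coreceptors. In that setting 26 members separated, beside 10.7% of all genes with a count. As each library was left out, the TCR segment log2 ratio was 0.20 to 1.15 and the number of separated members 22 to 29, beside 9.35% to 13.2% of all genes. Without both libraries the segment ratio was 0.17. With the sample number as a replicate block, 6 members were called higher, Cd28 being added (edgeR adjusted p = 0.0479). The share over all genes also rose, to 2.26%. The 2 summed log2 ratios with the block were 1.86 and 1.59. Same-numbered libraries correlated in their deviations from the group means with r = 0.06, 0.18 and 0.03 for numbers 1, 2 and 3. Libraries of different numbers had r from -0.14 to 0.08, and not every library correlated best with its own number. With 3 libraries in a group, these values cannot settle whether same-numbered libraries are paired. The labels do not say so, and the main fit has no block. Depth limits most members: 28 of 38 had too few counts for the test.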
